A study of Mus musculus with 39 samples.

Results

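The sodium pump genes described here are Atp1b1, Atp1b2 and Atp1b3, which encode beta subunits of the Na,K-ATPase, and Fxyd1, which encodes a small regulator of the same pump. They were chosen by gene symbol and make up 4 of the 55401 genes in the deposited tables. The tables hold 39 RNA sequencing libraries of cells from male mice, made from 500 pg of total RNA each with a stranded kit for very small inputs that does not select polyadenylated RNA. Mice either went through chronic social defeat stress, in which repeated encounters with an aggressor are followed by a test of social behaviour that sorts them into susceptible and resilient animals, or served as controls. Cells were pulled from punched tissue with magnetic beads against ACSA-2, a surface epitope of astrocytes. The labels give 7 control, 8 susceptible and 7 resilient libraries from the nucleus accumbens (NAc), and 6 control, 6 susceptible and 5 resilient libraries from a tissue abbreviated PFC, read here as prefrontal cortex. The protocol text names NAc tissue for every library, including those labelled PFC. No strain, age, transgene or drug is named in the labels used here, and each library has its own mouse number.

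The Na,K-ATPase uses ATP to move sodium out of the cell and potassium into it. Its alpha subunit carries out the transport, its beta subunit is a glycoprotein needed to fold the pump and bring it to the cell surface, and FXYD proteins bind the complex and adjust its affinity for ions. In brain, astrocytes use the pump to clear the potassium that active neurons release and to keep the sodium gradient that drives glutamate uptake. The beta2 subunit, encoded by Atp1b2 and also known as AMOG, an adhesion molecule on glia, carries the ACSA-2 epitope used for sorting. All libraries were sorted in this way, so the part of the sort in the Atp1b2 level was not tested, and the values below are a description.

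Total counts per library ran from 941450 to 37339379, with a median of 11264270. Reads were counted over whole gene bodies, so a background level was read in each library from 1479 olfactory, vomeronasal and trace-amine receptor genes, which are silent in most tissues. It ran from 13.39% to 80.91% of the level that an even spread of reads over all genes would give, with a median of 58.11%, or 0.445 FPKM (fragments per kilobase of gene span, scaled to the library total). In 4 PFC libraries the background was under 30%, namely control library 2, susceptible library 1 and resilient libraries 1 and 2, and results that rest on them are given with and without them. All 15 astrocyte markers were detected in every library, with medians of 40.6 FPKM for Glul, 36.6 for Aldoc and 21.6 for Slc1a2, but of only 1.15 for Aldh1l1, 1.09 for S100b and 1.73 for Gfap. The 12 neuronal and 10 oligodendrocyte markers were also above 0 in every library, and the median of the summed markers was 170 FPKM for astrocytes, 60.1 for oligodendrocytes and 9.14 for neurons. These levels depend on gene span and include background, and the lists differ in their number of genes. In such bulk libraries, fewer cells of a type and less RNA per cell cannot be told apart.

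Atp1b2 was the most abundant of these transcripts in each library. On the per-length scale, which divides by the whole gene span, its mean of 43.3 FPKM ranked 19th among 21897 protein-coding genes. The astrocyte glutamate transporter gene Slc1a3 had rank 65 on this scale and the water channel gene Aqp4 rank 183. The place ahead of Slc1a3 depends on gene length. As counts scaled to the effective library total (CPM), Slc1a3 averaged 951.4 in NAc controls, Atp1b2 272.8 and Aqp4 127.5. The gene lies on the minus strand of chromosome 11 at 69599736 to 69605942 (mm10, GENCODE M21; ENSMUSG00000041329.13). Exons make up 65.8% of its 6207 bases.

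In NAc controls, Atp1b2 ran from 22.8 to 65.8 FPKM with a median of 37.9. NAc libraries of susceptible mice ran from 22.2 to 54.5 FPKM around a median of 33.9. The lowest NAc median, 19.3 FPKM, was that of resilient mice, whose libraries ran from 11.7 to 66.0 FPKM. The 3 NAc conditions overlapped in part, and resilient library 1 stood as high as the highest control. Resilient libraries 3, 4, 5 and 7, at 19.2, 14.2, 11.7 and 19.3 FPKM, lay below every control and every susceptible library. PFC controls ran from 14.8 to 61.7 FPKM with a median of 39.0. PFC libraries of susceptible mice had the highest median, 65.8 FPKM, between 11.5 and 102 FPKM. The 5 PFC libraries of resilient mice held 66.5, 141, 58.8, 15.9 and 39.4 FPKM in order of their number. The spread within each PFC group was thus wider than any distance between PFC medians, and the highest library of all, PFC resilient library 2, exceeded the lowest, PFC susceptible library 3, by 12.25 times. Background cover amounted to 0.1% to 4.3% of the Atp1b2 level, with a median of 1.2%.

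**Figure D1:**
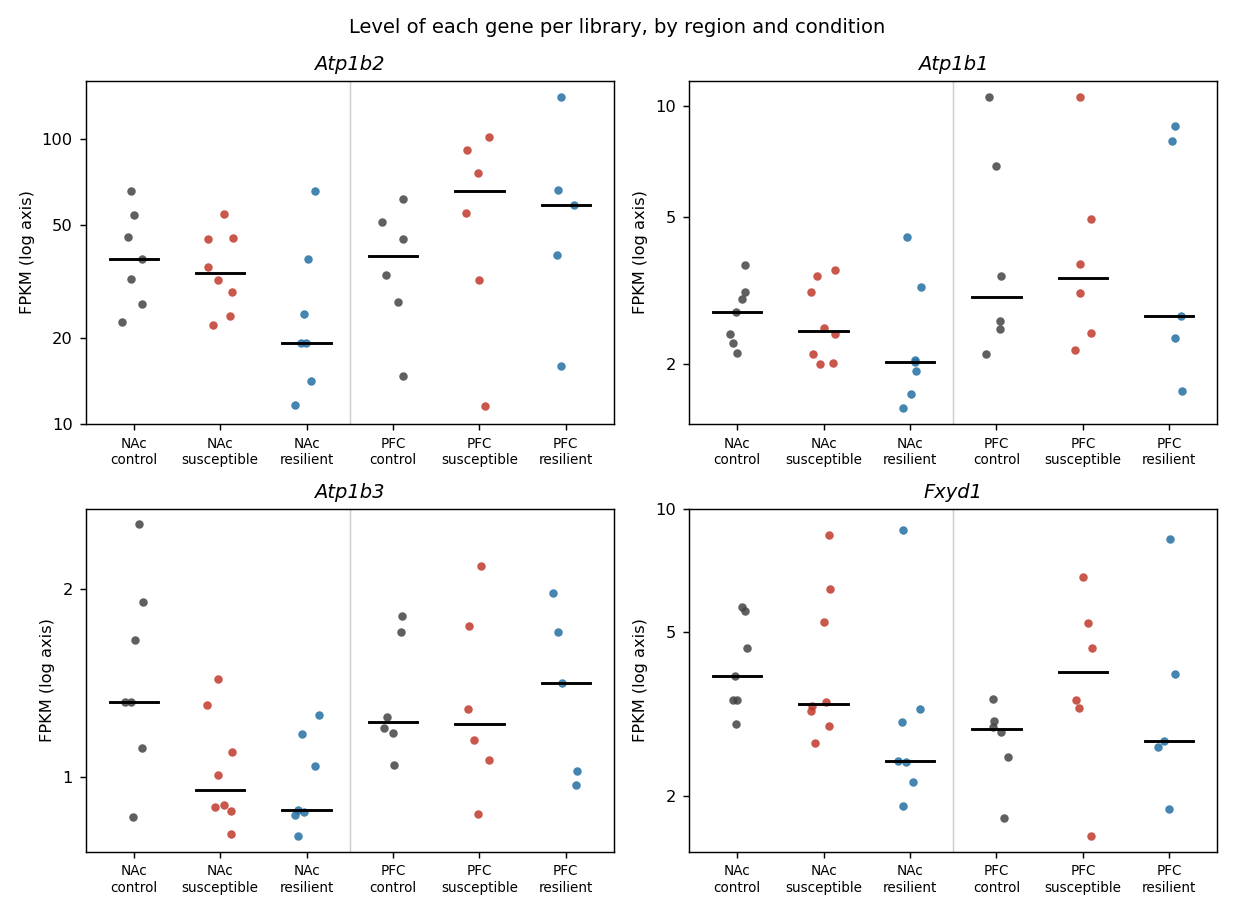
Level of each gene in each of the 39 libraries (points; FPKM on a log axis) by region and condition, with the median of each group as a black bar. Atp1b2 sits between 11.5 and 141 FPKM, above every value of the other genes, and the groups of each gene overlap.

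Within each library Atp1b2 exceeded both other beta subunit genes. Its FPKM was 12.88 times that of Atp1b1 at the median, from 4.85 to 21.76 times, and 32.95 times that of Atp1b3, from 10.87 to 82.89 times. Of the summed FPKM of the 3 beta genes, Atp1b2 held a median of 90.21%, Atp1b1 7.07% and Atp1b3 2.69%. By group the median Atp1b2 share ran from 86.84% in NAc resilient mice to 92.21% in PFC resilient mice, a narrower range than the 78.05% to 93.84% seen over single libraries. The 7 NAc control libraries lay within 86.37% to 93.21%, the 8 NAc susceptible libraries within 87.59% to 91.74% and the 7 NAc resilient libraries within 81.06% to 92.88%. All groups overlapped in this share. With the background level of each library subtracted, the medians were 92.17%, 5.87% and 1.75%.

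The size of these shares depends on the length used. FPKM here divides by the whole gene span, and exons make up only 14.5% of Atp1b1 and 7.5% of Atp1b3. Per exonic length the median shares were 61.87% for Atp1b2, 21.86% for Atp1b1 and 16.04% for Atp1b3, and as plain counts 70.36%, 19.06% and 10.59%. Atp1b2 stayed first on each of the 3 scales at the median.

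**Figure D2:**
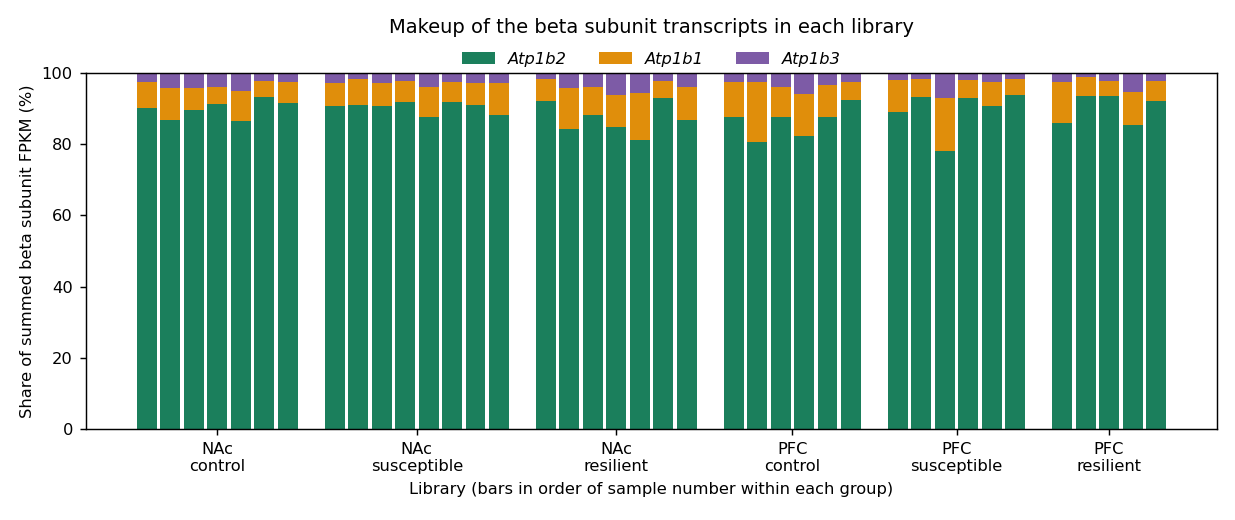
Share of Atp1b2, Atp1b1 and Atp1b3 in their summed FPKM (%, stacked to 100) in each library, in order of sample number within each group. Atp1b2 fills 78.05% to 93.84% of every bar, and the bar with the smallest Atp1b2 part is PFC susceptible library 3.

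Fxyd1 encodes phospholemman, a single-pass membrane protein that binds the pump and adjusts its activity. It lies on the minus strand of chromosome 7 at 31051678 to 31057199 (ENSMUSG00000036570.14), a span of 5522 bases of which exons make up 39.6%. With a mean of 3.86 FPKM it ranked 304th among the protein-coding genes. Its FPKM exceeded that of Atp1b1 in 30 of 39 libraries and that of Atp1b3 in all 39, so the first and last places in the order Atp1b2, Fxyd1, Atp1b1, Atp1b3 held in every library while the middle places did not. Per exonic length the order changed, with medians per exonic kilobase of 57.5 CPM for Atp1b2, 18.1 for Atp1b1, 15.6 for Atp1b3 and 8.24 for Fxyd1.

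Fxyd1 ran from 2.99 to 5.77 FPKM in NAc controls, with a median of 3.91. In NAc susceptible mice it ran from 2.69 to 8.61 FPKM with a median of 3.34. NAc resilient mice had a median of 2.42 FPKM between 1.88 and 8.88, and the top value was that of resilient library 1, which was also highest for Atp1b2 in NAc. PFC controls ran from 1.77 to 3.43 FPKM around 2.90. The PFC susceptible libraries ran from 1.59 to 6.81 FPKM around 3.99. PFC resilient libraries held 3.95, 8.43, 2.71, 1.85 and 2.63 FPKM. All 6 groups overlapped, and PFC resilient library 2 and PFC susceptible library 3, the highest and lowest PFC libraries for Fxyd1, were so for Atp1b2 as well. The ratio of Atp1b2 to Fxyd1 had medians of 9.43, 8.63 and 7.94 in the control, susceptible and resilient groups of NAc and of 14.31, 13.68 and 16.76 in those of PFC. Its ranges overlapped between the regions, and the difference was not tested. Background cover made up a median of 13.4% of the Fxyd1 level.

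Atp1b1 encodes the beta1 subunit, which is widely expressed and is the main beta subunit of many neurons and epithelia. It lies on the minus strand of chromosome 1 at 164437109 to 164458355 (ENSMUSG00000026576.12) and shares 617 bases at its end with Nme7 on the other strand. Its mean of 3.49 FPKM ranked 377th. In NAc it ran from 2.14 to 3.70 FPKM in controls (median 2.76), from 2.00 to 3.61 in susceptible mice (median 2.46) and from 1.52 to 4.43 in resilient mice (median 2.02). The NAc groups thus lay close together and overlapped.

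PFC libraries reached higher Atp1b1 levels. Controls ran from 2.13 to 10.5 FPKM with a median of 3.05, and susceptible mice from 2.18 to 10.6 with a median of 3.43. The 5 resilient libraries held 8.83, 8.02, 2.70, 1.69 and 2.36 FPKM. The 4 PFC libraries of low background held 8.02 to 10.6 FPKM of Atp1b1, above the other 13 PFC libraries, which ran from 1.69 to 6.88 with a median of 2.62, and above the NAc maximum of 4.43. The summed neuronal markers of these 4 libraries were 48.8, 39.0, 42.2 and 19.9 FPKM, against 7.91 to 29.2 FPKM in the other 13 PFC libraries and 6.97 to 12.1 FPKM in all NAc libraries. The ranges overlap within PFC, since control library 1, at 29.2 FPKM, lay above resilient library 2, at 19.9. The part of these markers in the result was not tested. For the other 3 genes the 4 libraries were not apart in this way: Atp1b2 ran from 51.1 to 141 FPKM in them and up to 91.8 in the other PFC libraries.

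Atp1b3, which encodes the beta3 subunit, had the lowest FPKM of the members in every library, though not the lowest level per exonic length. It lies on the minus strand of chromosome 9 at 96332655 to 96364442 (ENSMUSG00000032412.8), a span of 31788 bases, and ranked 2796th with a mean of 1.27 FPKM. Background cover equalled a median of 37.6% of its level, between 4.7% and 71.5%, more than for the other 3 genes. NAc controls ran from 0.862 to 2.54 FPKM with a median of 1.32. NAc susceptible mice had a median of 0.953 FPKM between 0.809 and 1.44, and NAc resilient mice one of 0.886 between 0.803 and 1.26. Most defeated NAc libraries lay below the control median, but the lowest control lay among them, so the groups overlapped. In PFC, controls ran from 1.05 to 1.81 FPKM (median 1.22) and susceptible mice from 0.873 to 2.18 (median 1.22). PFC resilient libraries held 1.97, 1.71, 1.41, 1.02 and 0.969 FPKM.

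Sequences upstream of 3 of the 4 genes were matched in the RefSeq table for GRCm38.p6, those of Atp1b1, Atp1b3 and Fxyd1. They are shown because Atp1b1 and Atp1b3 varied together over the PFC libraries, and because the series is about the transcription factor CREB. Both genes also went against background cover in PFC, at r of -0.98 and -0.86, and a part of these sequences in their levels was not tested. Atp1b3 has a pair of RefSeq starts, and the window of the upstream one is shown. Each sequence is read 5′ to 3′ on the minus strand and ends at the RefSeq start, except that for Atp1b3 the last 11 bases, which lie in a GENCODE exon, are left out. Capitals mark the GC box GGGCGG and the CRE half-site TGACG on either strand.
Atp1b1 chr1:164458356-164458605: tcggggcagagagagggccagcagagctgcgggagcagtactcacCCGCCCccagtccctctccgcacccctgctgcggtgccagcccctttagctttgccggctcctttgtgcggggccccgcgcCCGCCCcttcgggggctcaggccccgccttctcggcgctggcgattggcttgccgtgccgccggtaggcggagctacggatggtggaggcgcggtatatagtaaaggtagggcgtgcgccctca
Atp1b3 chr9:96364443-96364681: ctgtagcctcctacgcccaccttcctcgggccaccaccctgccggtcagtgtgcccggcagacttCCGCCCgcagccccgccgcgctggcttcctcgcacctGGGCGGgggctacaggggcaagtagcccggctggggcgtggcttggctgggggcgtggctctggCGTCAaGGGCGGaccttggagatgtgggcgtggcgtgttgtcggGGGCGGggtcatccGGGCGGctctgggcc
Fxyd1 chr7:31054854-31055103: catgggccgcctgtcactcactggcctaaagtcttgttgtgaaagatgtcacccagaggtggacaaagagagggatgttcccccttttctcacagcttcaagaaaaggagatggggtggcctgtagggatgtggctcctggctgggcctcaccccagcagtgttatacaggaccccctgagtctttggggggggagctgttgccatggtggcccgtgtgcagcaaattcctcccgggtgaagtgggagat
None of these windows held the full CRE TGACGTCA, which was in 1.5% of 32851 promoters of 250 bases. The half-site, which is part of the full CRE, occurred in 17.8% of them and once here, in the Atp1b3 window shown. GC boxes occurred in 32.7% of promoters, 2 times in the Atp1b1 window, 5 times in the Atp1b3 window shown and not in that of Fxyd1. The window of the other Atp1b3 start, chr9:96363716-96363965, held 0 GC boxes and 0 half-sites, and G and C made up 76.8% of it. G and C made up 70.4% and 73.6% of the Atp1b1 window and this upstream Atp1b3 window of 250 bases and 57.2% of that of Fxyd1, against a median of 52.4% over all promoters. The Fxyd1 window lies inside the longer gene span that GENCODE gives.

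Atp1b2 followed the summed astrocyte markers nearly in proportion. These correlations are descriptions over libraries that differ in depth and background, with log2 FPKM on both sides. Atp1b2 against the 15 astrocyte markers, a list without Atp1b2, gave Pearson's r of 0.98 in 22 NAc libraries (Spearman's rho 0.99) and 0.99 in 17 PFC libraries (rho 0.98), and 0.99 in the 13 PFC libraries without the 4 of low background. The genes most like Atp1b2 over all 39 libraries, among 6168 well-expressed genes, were Glul, S1pr1, Gpr37l1, Mfge8 and Aldoc, each at r = 0.99, where the median gene had 0.50. Glul encodes glutamine synthetase and Aldoc an aldolase, both commonly used to mark astrocytes. Fxyd1 also followed the astrocyte sum, at r = 0.93 in NAc and 0.87 in PFC, and followed Atp1b2 at 0.91 and 0.84. Its nearest genes were Fads2, Mlc1 and Plxnb1 at r = 0.95, and Fads1 and Msi2 at 0.94, with a median over genes of 0.39. Mlc1 encodes a membrane protein of astrocyte endfeet, and Fads1 and Fads2 encode fatty acid desaturases.

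Atp1b1 followed the astrocyte sum at r = 0.81 in NAc, the highest of its 8 marker lists there, and at 0.69 in PFC, where other measures were closer. It went against background cover at r = -0.98 over the 17 PFC libraries and at -0.95 over the 13 without the 4 low-background ones, and at -0.74 in NAc. Both measures are scaled to the same library total. Atp1b2, Atp1b3 and Fxyd1 also went against background cover, at -0.77, -0.86 and -0.69 in PFC and -0.73, -0.68 and -0.78 in NAc. With the neuronal markers the r of Atp1b1 was 0.86 in PFC and 0.09 in NAc. In NAc the 12 neuronal markers summed to only 6.97 to 12.1 FPKM, beside a median background of 0.449 FPKM per gene, which leaves little range. In PFC the r with these markers was 0.59 in the 13 libraries and 0.36 in these without the 2 farthest from the median. The relation to neuronal markers thus rests on few PFC libraries. The nearest genes to Atp1b1 were Clstn1 at r = 0.98 and Ankrd11, Sptan1, Prrc2b and Lncpint at 0.97, against a median of 0.62. Clstn1 encodes a synaptic calsyntenin and Sptan1 a spectrin of the membrane skeleton.

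Atp1b3 followed the 10 oligodendrocyte markers at r = 0.94 in NAc (rho 0.95) and 0.85 in PFC (rho 0.91), above its r with the astrocyte sum of 0.58 and 0.66. The value in NAc was 0.94 also without the 2 libraries farthest from the median, and in PFC it was 0.81 in the 13 libraries without the low-background ones. In PFC other measures were about as close to Atp1b3. Its r there was -0.86 with background cover, -0.83 with ependymal and choroid plexus markers and 0.80 with neuronal markers. With background cover in NAc the r of Atp1b3 was -0.68. Its nearest genes were Epn2, App and Mast3 at r = 0.96 and Map1a and Sept7 at 0.95, where the median gene had 0.55. Atp1b1 and Atp1b3 followed each other at r = 0.92 in PFC and 0.55 in NAc.

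**Figure D3:**
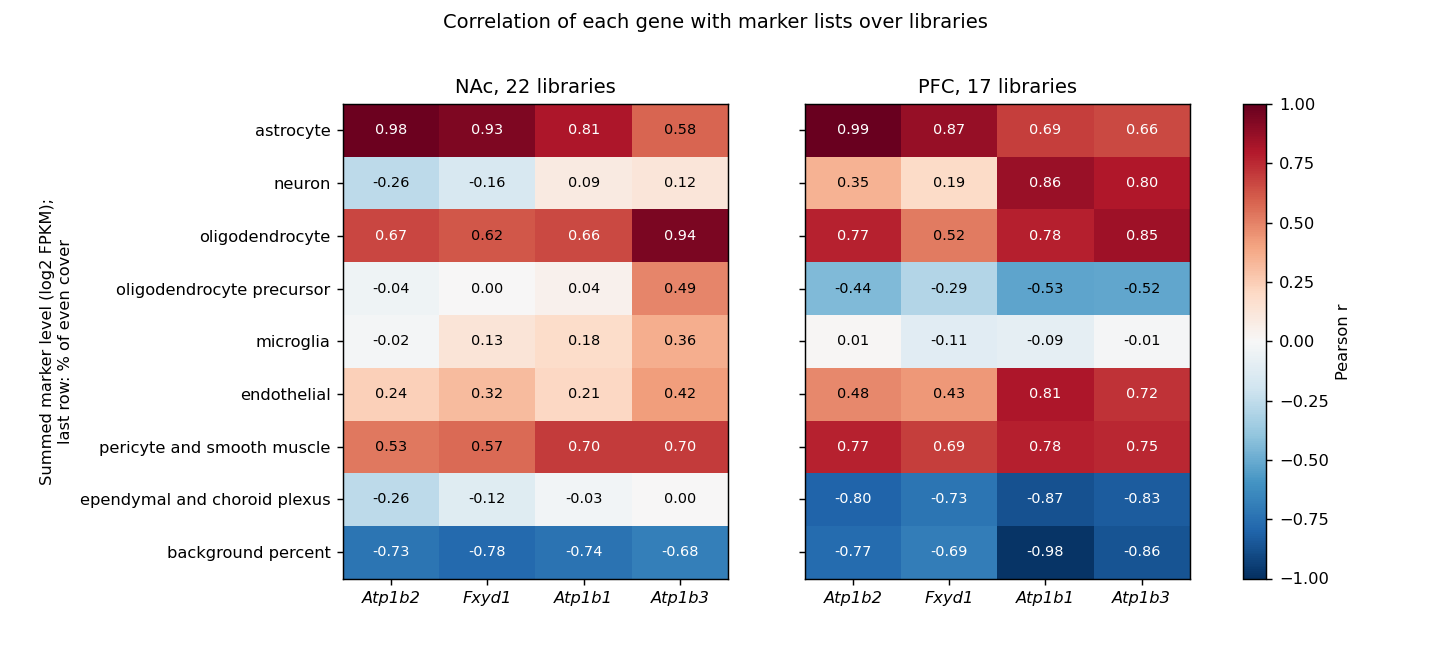
Pearson's r of the log2 FPKM of each gene with the log2 summed FPKM of 8 marker lists and with background cover (%), over 22 NAc and 17 PFC libraries. The astrocyte row is highest for Atp1b2 in both regions, and the oligodendrocyte row for Atp1b3.

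**Figure D4:**
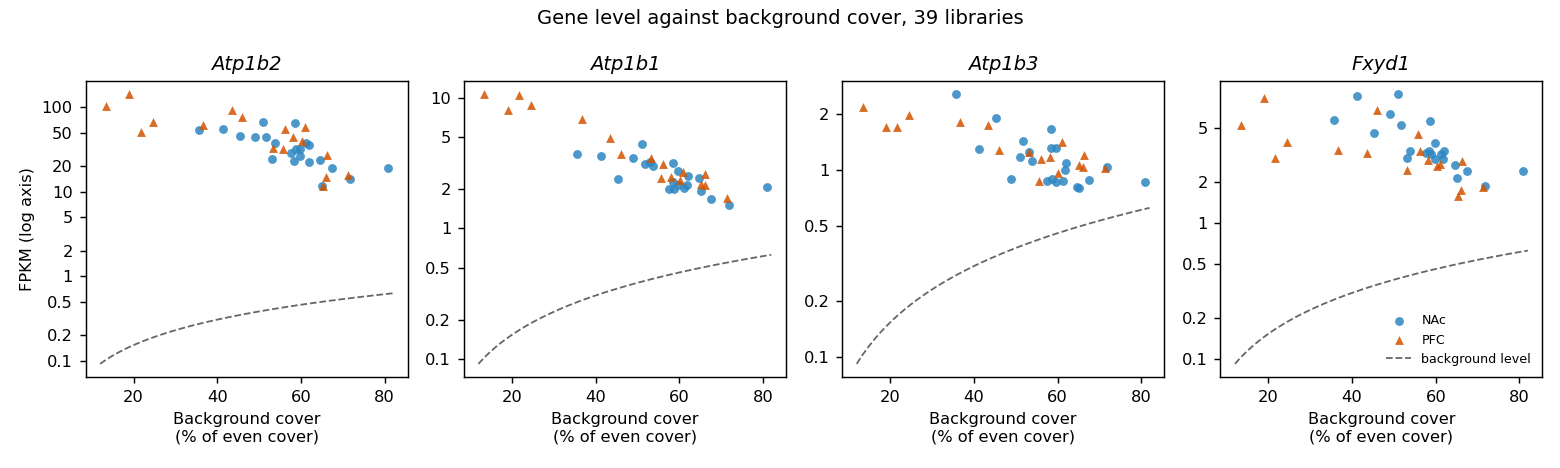
FPKM of each gene (log axis) against background cover (% of even cover) in NAc (circles) and PFC (triangles) libraries, with the background level itself as a dashed line. All 4 genes are lower where background is higher, and Atp1b3 comes closest to the dashed line.

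Stress effects were asked of each region by comparing susceptible and resilient mice with controls and with each other. In NAc no member passed an adjusted p of 0.05 in edgeR's quasi-likelihood test, as was true of all 35943 genes (0% called in each of the 3 comparisons), and DESeq2 called none either. Atp1b3 had the smallest p of the members. Its level in CPM, counts scaled to the effective library total, averaged 51.95 ± 22.1 in 7 controls, 33.12 ± 8.87 in 8 susceptible and 31.11 ± 7.65 in 7 resilient libraries (mean ± SD). The fitted log2 difference from control was -0.59 ± 0.21 (SE) for susceptible mice, with a 95% interval of -1.02 to -0.16, an unadjusted p of 0.00937 and an adjusted p of 0.9999. For resilient mice it was -0.68 ± 0.22, with an interval of -1.13 to -0.23, an unadjusted p of 0.00481 and an adjusted p of 0.7555. The unadjusted p was under 0.05 for 1 of 4 members in either comparison, as for 3.02% of genes (1086) in the first and 6.14% (2206) in the second. The 2 comparisons share their controls.

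The oligodendrocyte markers were also lower at the median in defeated mice, and their part in the Atp1b3 result was not tested. Their sum ran from 28.8 to 198 FPKM in NAc controls (median 77.1), from 24.6 to 116 in susceptible mice (median 52.3) and from 22.2 to 75.9 in resilient mice (median 31.7). None of the 10 was at 0 in any library, and their median log2 difference from control was -0.82 in susceptible and -1.14 in resilient mice, beside 0.00 and 0.01 over all genes tested. NAc control library 3, the shallowest of all, was highest both for these markers and for Atp1b3. Without it the Atp1b3 differences were -0.46 and -0.54. With 2 components of the marker lists other than that of astrocytes as covariates they were -0.12 ± 0.09 and -0.07 ± 0.10.

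For the other members every NAc interval included 0. Atp1b2 averaged 272.8 ± 128.8 CPM in controls, 224.9 ± 84.2 in susceptible and 174.9 ± 138 in resilient mice. Its log2 difference from control was -0.27 ± 0.39 in susceptible mice (interval -1.08 to 0.54) and -0.63 ± 0.40 in resilient mice (-1.47 to 0.21, adjusted p = 0.7555). The latter was -1.09 without NAc resilient library 1 and -0.41 without NAc control library 6. The summed astrocyte markers were ordered in the same way, with medians of 169, 161 and 106 FPKM, and their part in the result was not tested. Atp1b1 differed from control by -0.11 ± 0.25 (interval -0.64 to 0.42) and -0.24 ± 0.26 (-0.79 to 0.30). Fxyd1 differed by 0.06 ± 0.38 (-0.72 to 0.84) and -0.31 ± 0.39 (-1.13 to 0.50). Between susceptible and resilient mice all 4 differences were positive, from 0.09 ± 0.21 for Atp1b3 to 0.37 ± 0.37 for Fxyd1, with adjusted p of 0.9975 or above. No member had an unadjusted p under 0.05 there, where 2.90% of genes (1042) did.

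In PFC the interval of every member included 0 in all 3 comparisons. None of 32167 genes was called in any of the 3 comparisons (0%), and DESeq2 called none. Atp1b2 was higher on average in defeated mice, at 248.6 ± 138.5 CPM in controls, 416.8 ± 298.8 in susceptible and 460.3 ± 399 in resilient mice. The log2 difference from control was 0.75 ± 0.58 (interval -0.47 to 1.96) in susceptible and 0.89 ± 0.60 (-0.37 to 2.15) in resilient mice, with an adjusted p of 1 in each. Fxyd1 differed by 0.63 ± 0.43 (-0.28 to 1.53) and 0.69 ± 0.45 (-0.25 to 1.63). The size of the resilient values rests on single libraries. Without PFC resilient library 2 they were 0.25 for Atp1b2 and 0.07 for Fxyd1, and without PFC resilient library 4 they were 1.17 and 0.94. The susceptible values were both 0.38 without PFC susceptible library 1, and at most 0.97 and 0.82 with another library left out. Without the 4 low-background libraries the differences of resilient mice were 0.03 and -0.23, and those of susceptible mice 0.56 and 0.46. The summed astrocyte markers had medians of 177 FPKM in control, 302 in susceptible and 230 in resilient libraries, and all 15 had positive differences from control in both comparisons. These intervals still allow differences of more than 1 log2 unit.

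Atp1b1 and Atp1b3 showed no direction in PFC. Atp1b1 differed from control by 0.00 ± 0.62 (interval -1.29 to 1.28) and 0.10 ± 0.65 (-1.25 to 1.45), and Atp1b3 by 0.09 ± 0.35 (-0.64 to 0.83) and 0.17 ± 0.37 (-0.60 to 0.93). Susceptible and resilient mice differed by -0.14 ± 0.60 for Atp1b2, -0.11 ± 0.65 for Atp1b1, -0.07 ± 0.37 for Atp1b3 and -0.06 ± 0.45 for Fxyd1. No member had an unadjusted p under 0.05 in PFC, where 0.482% (155), 0.597% (192) and 0.572% (184) of genes did. Without the 4 low-background libraries the differences of susceptible from resilient mice turned positive for all 4 genes, at 0.54, 0.60, 0.17 and 0.69, and remained short of the threshold.

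The regions were compared within each condition in a fit of all 39 libraries that tested 38171 genes. No member passed. In controls 1 gene did (0.00262%), Crym, which encodes mu-crystallin, and in susceptible mice 1 gene did (0.00262%), Acta2, which encodes smooth muscle actin. The count in controls was 81 with DESeq2, 297 with background cover as a covariate, 0 with marker components and 36 without the 4 low-background libraries, and in susceptible mice DESeq2 called 5. None was called in resilient mice (0%), where leaving out PFC resilient library 4 gave 85 called genes and DESeq2 called 55. Differences below are NAc minus PFC.

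Atp1b1 was lower in NAc in all 3 conditions, each time at an unadjusted p under 0.05. Its level averaged 58.82 ± 14.42 CPM in NAc and 116.7 ± 108.9 in PFC controls, with a log2 difference of -1 ± 0.49 (interval -1.99 to -0.01, adjusted p = 0.9836). The difference was -1.08 ± 0.47 in susceptible mice (-2.03 to -0.13, adjusted p = 0.7179) and -1.34 ± 0.51 in resilient mice (-2.37 to -0.31, adjusted p = 0.3179). The SD of the PFC libraries was close to their mean, and the 4 low-background libraries held the highest values. Without these the differences were -0.38, -0.35 and 0.11, so the size rests on them in all 3 conditions and the direction in resilient mice. Single libraries moved it too, to -0.37 in controls without PFC control library 2 and to -0.37 in susceptible mice without PFC susceptible library 1. With background cover as a covariate they were -0.39, -0.21 and 0.00.

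Atp1b2 did not differ between the regions in controls by more than its error, at -0.06 ± 0.51 (interval -1.09 to 0.98). In susceptible mice it was lower in NAc by -1.04 ± 0.49 (-2.03 to -0.04, unadjusted p = 0.0412, adjusted p = 0.7179), at 214 ± 76.1 against 439.9 ± 321.1 CPM. In resilient mice the difference was -1.56 ± 0.53 (-2.64 to -0.48, unadjusted p = 0.00576, adjusted p = 0.3054), at 166.9 ± 128.9 against 493.3 ± 435.7. Without the 4 low-background libraries these values were 0.17, -0.65 and -0.49. With 1 library left out, the value ran from -1.27 to -0.67 in susceptible mice, the latter without PFC susceptible library 1, and from -2.01 to -0.93 in resilient mice, the latter without PFC resilient library 2. The 15 astrocyte markers had median differences of 0.21 in control, -0.64 in susceptible and -1.06 in resilient mice, beside -0.02, 0.03 and 0.06 over all genes tested.

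Atp1b3 differed between regions by 0.03 ± 0.29 in controls, -0.65 ± 0.28 in susceptible mice (interval -1.21 to -0.08, adjusted p = 0.7179) and -0.81 ± 0.30 in resilient mice (-1.43 to -0.20, adjusted p = 0.3179). The susceptible value was -0.29 without PFC susceptible library 1. Fxyd1 differed by 0.51 ± 0.42 (-0.33 to 1.36), -0.03 ± 0.40 (-0.85 to 0.78) and -0.50 ± 0.44 (-1.38 to 0.38). Fxyd1 was thus the member with no unadjusted p under 0.05 in any region comparison. Of the 4 members, 1 in controls, 3 in susceptible and 3 in resilient mice had an unadjusted p under 0.05, where 5.04% (1924), 6.23% (2378) and 14.6% (5564) of genes did. Among the 7087 genes of average log2 CPM above 5 the share was larger, with 774, 713 and 1933 genes.

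Whether a stress effect differed between the regions was tested as an interaction. The members' values were all negative, NAc effect minus PFC effect. For the susceptible effect they were -0.98 ± 0.71 for Atp1b2, -0.08 ± 0.68 for Atp1b1, -0.68 ± 0.40 for Atp1b3 and -0.55 ± 0.58 for Fxyd1. For the resilient effect they were -1.51 ± 0.74 (interval -3.01 to -0.01, unadjusted p = 0.0489, adjusted p = 0.849), -0.34 ± 0.71, -0.84 ± 0.42 and -1.01 ± 0.60. No gene was called in either interaction (0%) by edgeR or DESeq2, and 0 and 1 of the 4 members had an unadjusted p under 0.05, beside 1.38% (528) and 3.45% (1318) of all genes. Without the 4 low-background libraries the Atp1b2 value for the resilient effect was -0.65, and without PFC resilient library 2 it was -0.89.

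**Figure D5:**
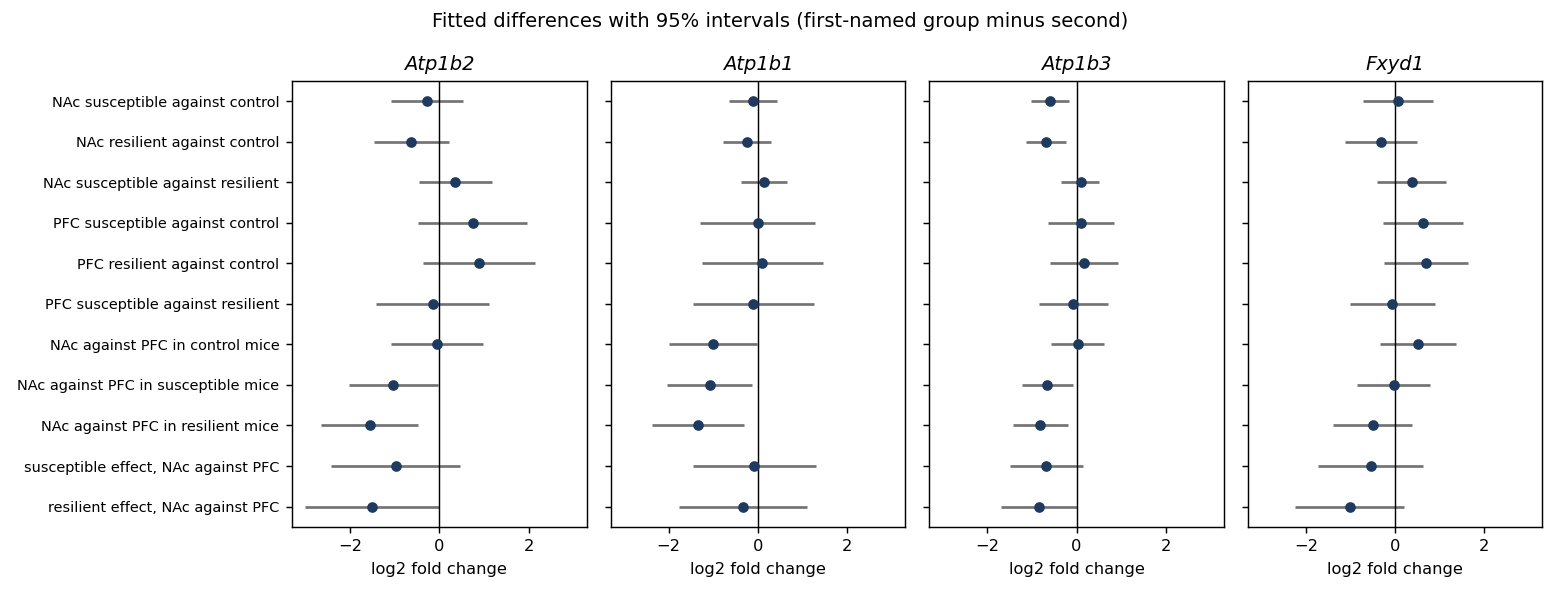
Fitted log2 fold changes (points) with 95% intervals (lines) of the 4 genes in the 11 comparisons, first-named group minus second. Intervals that leave out 0 occur for Atp1b3 in NAc against controls and for Atp1b1, Atp1b2 and Atp1b3 between regions, and for Atp1b2 in the interaction for the resilient effect, and no point passed the adjusted threshold.

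The partners of these subunits were read from lists of 11 other beta, FXYD and NKAIN genes, 3 related potassium pumps and 13 users of the sodium gradient or potassium channels of astrocytes. None of these genes passed in any comparison. Median levels of the potassium pump genes Atp4a, Atp4b and Atp12a were 1.80, 1.42 and 1.11 times background, and of the other beta gene Atp1b4 0.60 times. Slc1a2 and Slc1a3, which encode the glutamate transporters that use the sodium gradient, had medians of 21.6 and 9.54 FPKM.

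In NAc the smallest p of the list genes belonged to Nkain1, which encodes a protein that binds the pump's beta1 subunit. Nkain1 differed from control by -0.50 ± 0.18 in susceptible (adjusted p = 0.9999) and -0.56 ± 0.19 in resilient mice (adjusted p = 0.7555). Next were the sodium-calcium exchanger gene Slc8a1 at -0.33 ± 0.13 in susceptible mice and the sodium, potassium and chloride cotransporter gene Slc12a2 at -0.73 ± 0.30 in resilient mice. Between susceptible and resilient mice Nkain3 differed by -0.23 ± 0.11 and Fxyd5 by 0.35 ± 0.17.

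In PFC the smallest p of the list genes were those of Nkain4 at 0.53 ± 0.29 and Fxyd6 at -0.41 ± 0.24 in susceptible mice against controls. In resilient mice they were those of Slc1a2 at 0.82 ± 0.54 and Fxyd2 at -0.57 ± 0.41. Fxyd6 at -0.29 ± 0.25 and Fxyd2 at 0.47 ± 0.42 came first between susceptible and resilient mice. All of these had an adjusted p of 1.

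Between regions, NAc minus PFC, none of these genes passed either. In controls Slc8a2 differed by -1.55 ± 0.40 and Fxyd7, a brain FXYD gene, by -1.12 ± 0.30, each at an adjusted p of 0.2204. Fxyd5 differed by -0.88 ± 0.33 in susceptible and -1.17 ± 0.37 in resilient mice. The 12 neuronal markers had median differences of -0.98, -0.68 and -0.72 in the 3 conditions, and their part in these values was not tested. In the interactions the list genes first in p were Fxyd6 at 0.72 ± 0.27 and Nkain1 at -0.63 ± 0.27 for the susceptible effect, and Nkain1 at -0.74 ± 0.28 and Slc12a2 at -1.06 ± 0.50 for the resilient effect.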

How the data were processed

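The authors deposited whole-number counts per gene, made with featureCounts on mm10 per the submitters' processing notes, and FPKM. Which aligner, versions, strand setting and annotation were used is not given in the sources used here. For 54229 of 54229 genes that could be checked, with a tolerance of 1e-06, the authors' FPKM were the counts divided by the library total and by the whole span of the gene in GENCODE M21, introns included, so low genes take up reads that fall evenly over the genome. Names came from GENCODE M21, which matched 55141 gene identifiers and not the other 260.

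Counts were tested with edgeR 4.0.16 in R 4.3.3 (quasi-likelihood, TMM scaling, default count filter, robust dispersion), with Benjamini-Hochberg adjustment over all genes tested and a threshold of 0.05. Each region was fitted alone, and region comparisons and interactions came from 1 fit of all libraries. CPM are counts scaled by TMM. FPKM correlations used a pseudocount of 0.1. Background cover is the FPKM of 1479 receptor genes over 0.766, the FPKM of an even spread over 1305.6 Mb of genes. Alternatives were DESeq2 1.42.0, its size factors, no count filter, background cover or 2 marker components as covariates, replicate block, consecutive sample numbers as pairs, and libraries left out. The marker components came from the marker lists other than that of astrocytes. Leaving out the 4 low-background libraries and the exonic length were chosen after seeing the data.

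The members and gene lists were chosen with earlier results of these data known. Named were the members, list genes past the threshold or, with none, the 2 of smallest p in each comparison, and the 5 genes of highest correlation with each member among those of average log2 CPM above 5. Some list genes that the rule covers are not reported here. Same-numbered PFC libraries of different conditions deviated together in all pairs (lowest r 0.141 over genes of log2 CPM above 3). They may thus be paired, a hint from the data and not from the labels. The best match of a PFC library, however, carried its own number in only 2 of 6, 1 of 5 and 2 of 5 cases. The values given are from the fits without the block, which changed no call of a member. Same-numbered NAc libraries did not deviate together in all pairs. Their correlation exceeded 0.1 in 5, 2 and 4 of 7 pairs and was as low as -0.581, so pairing by number stays unsettled there. P-values measure the spread between libraries, which the labels number as separate mice. There are 16 pairs of consecutive numbers, 1 library from each region, and both share their condition in all 16, so that region comparisons may hold the same mice. The labels do not settle this.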

Additional observations from a re-analysis of the deposited data

Results flagged for a closer look

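Of 48 sets of values within a group, 4 had 1 library far from the others, where chance gives about 1 in 20. In NAc resilient mice, library 1 had an Fxyd1 level of 8.875 FPKM, with a gap to the next library of 0.805 of the whole range over 7 libraries. In PFC susceptible mice, library 1 had an Atp1b1 level of 10.578 FPKM, with a gap of 0.671 of the range over 6 libraries, and it was also the library of lowest background cover at 13.39%. In the same group, library 3 had the lowest Atp1b2 share of the beta subunit FPKM, 78.05%, and the highest Atp1b3 share, 7.18%, with gaps of 0.687 and 0.841 of the range, and its background cover of 65.2% was the highest of its group.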

How the results depend on the processing

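In none of these alternatives, and with no single library left out, did any of the 4 genes pass an adjusted p of 0.05 in any comparison; the smallest adjusted p with 1 library left out was 0.0645, for Atp1b2 between regions in resilient mice. Signs of unsupported differences changed as follows (log2, first group minus second; S, R and C are susceptible, resilient and control). DESeq2 and its size factors gave 0.01 for Atp1b1 in PFC S against C. With background cover as covariate, 14 of 44 signs changed: Atp1b2 in NAc against PFC controls 0.25; Fxyd1 in NAc against PFC 0.41 in R and 0.41 in S; in NAc R against C, Atp1b1 0.09 and Fxyd1 0.13; in NAc S against R, Atp1b1 -0.15, Atp1b2 0, Atp1b3 -0.18 and Fxyd1 -0.10; in PFC, Atp1b1 in R against C -0.15, Atp1b3 in S against C -0.08 and Fxyd1 in S against R 0.05; and the Atp1b1 interactions 0.39 (R) and 0.18 (S). With 2 marker components, 19 changed: between regions Atp1b3 -0.05 (C), Atp1b1 0.09 (R) and 0.04 (S), and Fxyd1 0.12 (S); in NAc R against C, Atp1b1 0.18, Atp1b2 0.01 and Fxyd1 0.19; in NAc S against C, Atp1b1 0.27 and Atp1b2 0.30; in NAc S against R, Atp1b3 -0.05; in PFC R against C, Atp1b1 -0.14 and Atp1b3 -0.02; in PFC S against C, Atp1b3 -0.04; in PFC S against R, Atp1b1 0.09, Atp1b2 0.06 and Fxyd1 0.12; and in the interactions, Atp1b1 0.17 (R) and 0.13 (S) and Fxyd1 0.04 (S). Without the 4 low-background PFC libraries, 14 of 32 changed: between regions Atp1b2 0.17 (C), Atp1b1 0.11 (R) and Fxyd1 0.58 (R) and 0.27 (S); in PFC R against C, Atp1b1 -0.73, Atp1b3 -0.25 and Fxyd1 -0.23; in PFC S against C, Atp1b3 -0.08; in PFC S against R, Atp1b1 0.60, Atp1b2 0.54, Atp1b3 0.17 and Fxyd1 0.69; and the Atp1b1 interactions 0.49 (R) and 0.03 (S). Without the 3 shallowest libraries 3 changed: between regions Atp1b3 -0.11 (C) and Fxyd1 0.11 (S), and Atp1b1 0.05 in PFC S against C. With consecutive sample numbers as pairs 2 of 20 changed: Atp1b3 -0.09 between regions (C) and the Atp1b1 interaction 0.35 (R). The cause was not tested in any of these.

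With the replicate block, 0 genes were called within either region, as without it, and 6 signs changed: between regions Atp1b2 0.20 (C) and Fxyd1 0.22 (S), and in PFC, Atp1b1 -0.08 in R against C, 0.04 in S against C and 0.12 in S against R, and Fxyd1 0.06 in S against R. Same-numbered NAc libraries exceeded a correlation of 0.1 in 5, 2 and 4 of 7 pairs, and the best match of a library carried its own number in 2, 1 and 0 of 7 cases. In PFC the best match did so in 2 of 6, 1 of 5 and 2 of 5 cases.

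Calls between regions moved. In controls, 1 gene was called, 81 with DESeq2, 297 with background cover, 3 with consecutive pairs, 0 with marker components and 36 without the 4 low-background libraries. In susceptible mice 1 was called, 5 with DESeq2, and 0 with consecutive pairs, marker components or without the 4 libraries. In resilient mice 0 were called, and 55 with DESeq2. Leaving out 1 library gave 0 to 85 calls in resilient mice (85 without PFC library 4) and 0 to 2 in susceptible mice (0 without NAc library 2 or 5 or PFC library 1, 2 without PFC library 3 or 5). The beta subunit shares of Atp1b2, Atp1b1 and Atp1b3 moved from 90.21%, 7.07% and 2.69% to 70.36%, 19.06% and 10.59% as counts and to 61.87%, 21.86% and 16.04% per exonic length, since the divisor differs.

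With 1 library left out, signs changed within these ranges. Between regions: Atp1b2 -0.27 to 0.18 and Atp1b3 -0.11 to 0.25 in controls, and Fxyd1 -1.01 to 0.12 in resilient and -0.26 to 0.24 in susceptible mice. In NAc: Fxyd1 -0.16 to 0.21 in S against C and Atp1b3 -0.01 to 0.17 in S against R. In PFC R against C: Atp1b1 -0.31 to 0.72 and Atp1b3 -0.05 to 0.38. In PFC S against C: Atp1b1 -0.70 to 0.60 and Atp1b3 -0.25 to 0.29. In PFC S against R: Atp1b1 -0.80 to 0.30, Atp1b2 -0.51 to 0.50, Atp1b3 -0.42 to 0.15 and Fxyd1 -0.31 to 0.56. In the interactions: Atp1b1 -0.99 to 0.06 (R) and -0.72 to 0.63 (S). Depth limits Fxyd1 and Atp1b3 most, with as few as 24 and 50 counts in a library.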
